A study of Ursus arctos with 12 samples.

Results

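Histone methylation writers and erasers, the enzymes that place and remove methyl groups on the lysines of histones, were followed in the thigh muscle of hibernating and active brown bears (Ursus arctos). A gene belonged to the set by its symbol and not its values, but the set was chosen with earlier results of these data known. Writers were the KMT and SETD genes with a number, EZH1, EZH2, EHMT2, SUV39H1, SUV39H2, NSD1, NSD2, NSD3 and DOT1L, and erasers were the KDM genes with a number. EHMT1 was not analysed here. With at least 30 reads summed over the 12 libraries, 26 writers and 15 erasers remained, 41 of the 17290 genes tested and of the 30249 genes in the count table. KDM4D also matched by symbol, but had 8 reads in all and at most 3 in a library, and was left out.

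The libraries came from vastus lateralis biopsies of 6 free-ranging bears aged 2 to 3 years, with each animal sampled in winter, during hibernation, and again in summer, when it was active. The labels give no treatment and no genetic change beside the season. The bears of both seasons were therefore the same 6, named here by number, and season was compared within a bear. As the biopsy holds several cell types, fewer cells of a type and less RNA per cell cannot be told apart.

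Methylated lysines on histones H3 and H4 are read by other proteins, and their effect depends on the residue. Methylation of lysine 4 of histone H3 (H3K4) marks promoters and enhancers in use, that of H3K36 and H3K79 marks transcribed genes, and that of H3K9, H3K27 and H4K20 marks repressed chromatin. The writers take the methyl group from S-adenosylmethionine, most of them with a SET domain. Erasers of the KDM1 family use FAD, whereas the other KDM families are Jumonji enzymes that need iron, oxygen and α-ketoglutarate. In muscle these enzymes are best known from satellite cells, where EZH2 and KDM6A act on myogenic genes.

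Between 16742406 and 32140160 reads were counted per library. The winter library of bear 1509 stood apart from the others on the second principal component of all genes, at −98.6 against −8.16 to 29.4, so each call that changed without this bear is given with its value. CKM, TTN, ACTA1 and the other 5 tested muscle markers were abundant in every library, with a summed level of 105543 to 172530 CPM (reads scaled to the TMM-corrected library size) in summer and 111394 to 149692 CPM in winter. Single muscle markers differed between the seasons in both directions, as given below with the other markers.

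In winter, 18 of the 41 genes were higher and 6 were lower than in summer at an adjusted p below 0.05 (edgeR's quasi-likelihood test with season and bear as terms, Benjamini-Hochberg adjustment over all genes). These were 12 writers and 6 erasers that rose, and 3 of each that fell. The share called was 58.5% of the members, beside 40.8% of all genes tested (19.6% higher and 21.2% lower). The median log2 fold change, positive where winter was higher, was 0.30 over the writers and 0.15 over the erasers, and −0.01 over all genes. With the stricter limits for differentially expressed genes (DEGs), an adjusted p below 0.01 with a fold change above 1.3 or below 0.77, 8 members were higher and 4 lower. That is 29.3% of the members beside 25.7% of all genes, close to the background. The levels of both seasons did not overlap in 5 members that were higher and 2 that were lower, 17.1% of the members beside 17.3% of all genes (9.12% higher and 8.21% lower).

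The counts of rises and of falls both moved with single animals, and the count of rises also with the scaling. Scaled by library totals in place of TMM, 9 members were higher and 6 lower. Without bear 1305, 11 were higher and 5 lower. Without bear 1316 the counts were 11 and 7, without bear 1317 they were 17 and 4, and without bear 1509 they were 18 and 6. Of the 24 calls, 13 held under all 14 alternatives of scaling, filter, test and animals, namely those of SETD9, KMT2B, SETD6, SETD1B, SUV39H1, SETD1A, KDM5A, KDM3A and KDM1A among the rises and of SUV39H2, SETD7, KDM1B and KDM8 among the falls.

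**Figure D1:**
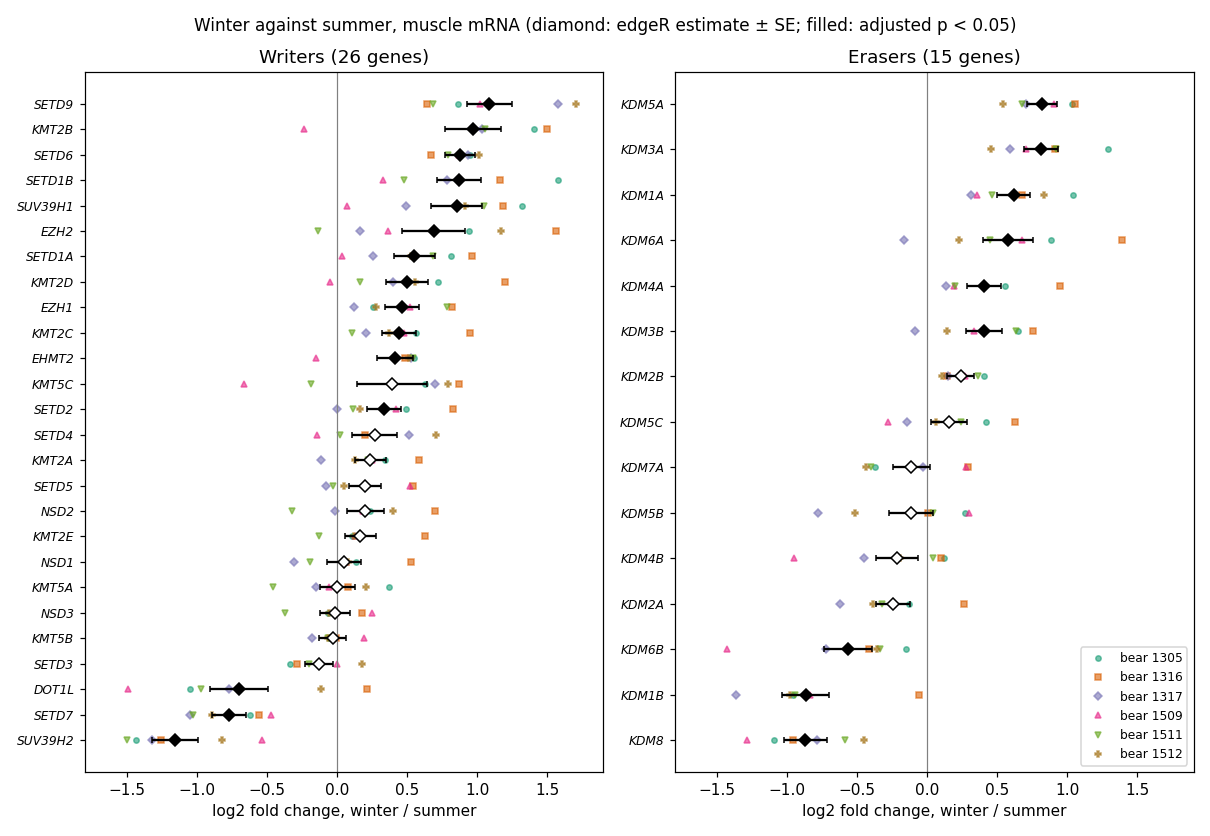
Log2 fold change of winter over summer (x axis) for the 26 writers (left) and 15 erasers (right), with black diamonds and bars for the edgeR estimate ± SE, filled where the adjusted p was below 0.05, and coloured symbols for the difference in each of the 6 bears. SETD9 lies highest at 1.08 and SUV39H2 lowest at −1.16.

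Most writers of H3K4 rose, whereas SETD7 fell. Of the 7 genes, 5 were higher, 1 was lower and KMT2A was not called (0.23, adjusted p = 0.11). The shares were 71.4% higher and 14.3% lower, beside 19.6% and 21.2% of all genes tested. KMT2B, the catalytic subunit of a complex that trimethylates promoters, ran from 3.94 to 4.44 log2 CPM in summer (median 4.08) and from 4.03 to 5.57 in winter (median 5.25). Its winter level was above every summer level in 5 bears and within the summer range in bear 1509. The log2 fold change was 0.97 (SE, the standard error, 0.20; adjusted p = 0.00308), and 1.20 without bear 1509. SETD1B, which with SETD1A carries out most trimethylation of H3K4, was at 3.48 to 4.14 log2 CPM in summer (median 3.81) and 4.25 to 5.05 in winter (median 4.80). These ranges did not overlap, and the log2 fold change was 0.87 (SE 0.16, adjusted p = 0.00166). SETD1A rose in 6 of 6 bears by 0.55 (SE 0.15, adjusted p = 0.0116) on the log2 scale.

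KMT2C and KMT2D, the writers of monomethylation at enhancers, rose less. KMT2C was higher in 6 of 6 bears, with a log2 fold change of 0.44 (SE 0.12, adjusted p = 0.0137), but with library totals its adjusted p was 0.0691. For KMT2D, higher in 5 of 6, the log2 fold change was 0.50 (SE 0.15, adjusted p = 0.0233). Its call was lost with library totals (adjusted p = 0.0637) and without bear 1305 (0.0785), 1316 (0.0591) or 1512 (0.0618).

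SETD7, which monomethylates H3K4 and also many proteins other than histones, fell in every bear. Its level was 8.71 to 9.03 log2 CPM in summer (median 8.91) and 7.84 to 8.48 in winter (median 8.11), without overlap. The log2 fold change was −0.77 (SE 0.12, adjusted p = 0.000698), or a fold change of 0.586.

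The writers of H3K9 moved in both directions, with the SUV39H paralogues apart. SUV39H1 and SUV39H2 both trimethylate H3K9 in heterochromatin. SUV39H1 was at 1.97 to 2.49 log2 CPM in summer (median 2.25) and 2.37 to 3.53 in winter (median 3.02), a log2 fold change of 0.85 (SE 0.18, adjusted p = 0.00382). It was higher in 6 of 6 bears, by only 0.07 in bear 1509, and the log2 fold change without that bear was 1.01. SUV39H2 was at 2.98 to 3.26 log2 CPM in summer (median 3.15) and 1.63 to 2.44 in winter (median 1.84). It was the member with the largest fall, −1.16 (SE 0.17, adjusted p = 0.000415), lower in 6 of 6 bears and without overlap between seasons. EHMT2, or G9a, the writer of mono- and dimethylation of H3K9 in euchromatin, was higher in 5 of 6 bears at 0.41 (SE 0.13, adjusted p = 0.0238). That call was lost with library totals (adjusted p = 0.0644) and without bear 1305 (0.0801), 1316 (0.0561), 1317 (0.0611), 1511 (0.0594) or 1512 (0.0671). Without bear 1509, the bear in which it was lower, the adjusted p was 0.00297.

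EZH1 and EZH2, the alternative catalytic subunits of Polycomb repressive complex PRC2, which methylates H3K27, were both higher. EZH1, the form of non-dividing tissue, was at 4.95 to 5.497 log2 CPM in summer (median 5.18) and 5.45 to 5.84 in winter (median 5.71), a log2 fold change of 0.46 (SE 0.12, adjusted p = 0.011), in 6 of 6 bears. With library totals its adjusted p was 0.0553. EZH2, with only 60 to 228 reads per library, had a log2 fold change of 0.69 (SE 0.23, adjusted p = 0.0311), in 5 of 6 bears. Its call was lost with library totals (adjusted p = 0.0602) and without bear 1305 (0.0932), 1316 (0.0886) or 1512 (0.0973). EZH2 is otherwise linked to dividing cells. Of the 18 proliferation markers, 10 were called lower in winter and 0 higher, 55.6% lower beside 21.2% of all genes. Their summed level was lower in 4 of 6 bears.

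The writers of the other residues changed little, apart from DOT1L. DOT1L, the H3K79 methyltransferase and the one member of the writers without a SET domain, was lower in 5 of 6 bears at −0.70 (SE 0.21, adjusted p = 0.0201). Its levels were 3.53 to 4.35 log2 CPM in summer (median 4.15) and 2.86 to 3.85 in winter (median 3.31). Bear 1316 went the other way, by 0.21, and bear 1509 fell most, by 1.49 on the log2 scale. The adjusted p of DOT1L was 0.0601, 0.0514 and 0.0595 when bear 1305, 1317 or 1511 was left out, and 0.048 without bear 1509. Of the 4 writers of H3K36, SETD2, which places the trimethyl mark behind the polymerase, was called at 0.33 (adjusted p = 0.0484). This call lay at the threshold. It was lost without the filter (adjusted p = 0.0757), with library totals (0.2) and without bear 1305 (0.139), 1316 (0.129), 1509 (0.0705), 1511 (0.0512) or 1512 (0.0688). NSD1, NSD2 and NSD3, which place the dimethyl mark, had log2 fold changes from −0.015 to 0.20 with adjusted p values of 0.252 to 0.922. The 3 writers of H4K20, KMT5A, KMT5B and KMT5C, were not called, at 0.00062, −0.033 and 0.39. KMT5C, with 25 to 85 reads in a library, was called without bear 1509 (0.60, adjusted p = 0.0484).

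Of the 6 SET domain proteins with a less certain histone target, SETD6 and SETD9 rose. SETD9, a little studied protein, was at 3.41 to 4.22 log2 CPM in summer (median 3.69) and 4.43 to 5.31 in winter (median 4.74). It had the largest rise of the members, 1.08 (SE 0.16, adjusted p = 0.00048), a fold change of 2.12. SETD6, known for methylating the NF-κB subunit RELA, was at 2.88 to 3.49 log2 CPM in summer (median 3.06) and 3.67 to 4.16 in winter (median 3.96), a rise of 0.88 (SE 0.11, adjusted p = 0.000185). Among the called members past 0.5 in size it had the narrowest range over the bears, 0.67 to 1.01. For both genes the seasons did not overlap. KMT2E, SETD4 and SETD5 had log2 fold changes of 0.17, 0.27 and 0.20 and SETD3, the actin histidine methyltransferase, one of −0.13, with adjusted p values of 0.195 to 0.333.

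**Figure D2:**
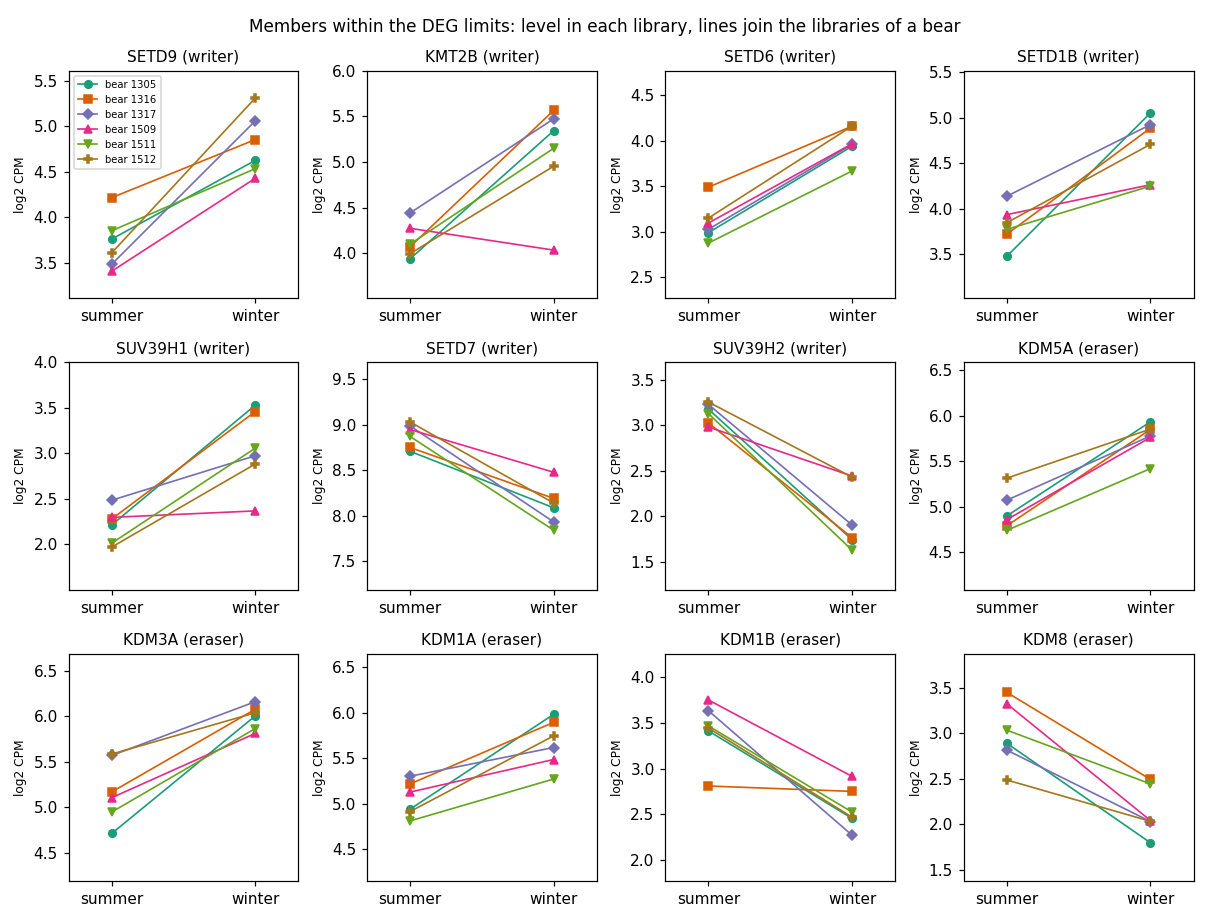
Level in log2 CPM (y axis, each panel spanning the same range) of the 12 members within the DEG limits, in summer and winter, with a line for each of the 6 bears. KMT2B falls only in bear 1509, whose winter level is 4.03, and KDM1B is nearly level only in bear 1316, with 2.81 in summer.

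Among the erasers, the FAD-dependent pair went in opposite directions. KDM1A (LSD1), which removes mono- and dimethylation from H3K4 as part of the CoREST complex, was at 4.81 to 5.30 log2 CPM in summer (median 5.04) and 5.27 to 5.98 in winter (median 5.68). It was higher in 6 of 6 bears at 0.62 (SE 0.12, adjusted p = 0.00234). KDM1B (LSD2) was at 2.81 to 3.75 log2 CPM in summer (median 3.46) and 2.27 to 2.91 in winter (median 2.49), a log2 fold change of −0.87 (SE 0.17, adjusted p = 0.00226). The log2 difference was −1.37 to −0.84 in 5 bears and −0.06 in bear 1316, without which the log2 fold change was −1.02. Overlap of the seasons came from the low summer level of that bear.

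Among the KDM3 and KDM4 erasers of H3K9, KDM3A, KDM3B and KDM4A rose and KDM4B did not. KDM7A, given below, also acts on H3K9 and was not called. KDM3A, a demethylase of mono- and dimethylated H3K9 that is also a known hypoxia target, was at 4.71 to 5.58 log2 CPM in summer (median 5.14) and 5.81 to 6.16 in winter (median 6.02). All winter levels were above all summer levels, with a log2 fold change of 0.81 (SE 0.12, adjusted p = 0.000522). KDM3B followed at 0.40 in 5 of 6 bears (SE 0.13, adjusted p = 0.0272), and KDM4A, which acts on trimethylated H3K9 and H3K36, at 0.41 in 6 of 6 (SE 0.12, adjusted p = 0.0229). Both calls were lost with library totals (adjusted p = 0.117 and 0.1), without bear 1305 (0.0964 and 0.0754) and without bear 1316 (0.0767 and 0.0597). KDM3B was also lost without bear 1511 (0.0735) and KDM4A without bear 1512 (0.0563). KDM4B was not called at −0.22 (adjusted p = 0.268), and differed by −0.95 in bear 1509, without which it was at −0.065.

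In the KDM5 and KDM6 families, the paralogues did not move as one. KDM5A, which demethylates trimethylated H3K4, rose from 4.74 to 5.31 log2 CPM in summer (median 4.88) to 5.42 to 5.93 in winter (median 5.81). The seasons did not overlap, and the log2 fold change was 0.82 (SE 0.11, adjusted p = 0.000233), the smallest adjusted p of the erasers. KDM5B and KDM5C stood at −0.11 (adjusted p = 0.585) and 0.15 (adjusted p = 0.364). The H3K27 demethylases KDM6A (UTX) and KDM6B (JMJD3) changed in opposite directions, by 0.58 (SE 0.18, adjusted p = 0.0241) and −0.57 (SE 0.17, adjusted p = 0.0222). KDM6A was higher in 5 of 6 bears and ranged from 2.82 to 4.50 log2 CPM in summer (median 4.10) and from 3.74 to 4.92 in winter (median 4.67). It was not called without the bear as a term (adjusted p = 0.0921 in edgeR, 0.0678 in DESeq2), with library totals (0.0701), or without bear 1305 (0.0814) or 1316 (0.0608). KDM6B was lower in 6 of 6 bears, most in bear 1509 (−1.43), and ranged from 2.96 to 3.81 log2 CPM in summer (median 3.39) and from 2.38 to 3.31 in winter (median 2.77). Without bear 1317 its adjusted p was 0.06, and without bear 1509 the log2 fold change was −0.39 (adjusted p = 0.036).

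Of the other erasers, KDM8 (JMJD5), a Jumonji protein also described as a protein hydroxylase, was lower in 6 of 6 bears. It was at 2.49 to 3.45 log2 CPM in summer (median 2.96) and 1.80 to 2.49 in winter (median 2.04), so that the seasons met at 2.49, with a log2 fold change of −0.87 (SE 0.15, adjusted p = 0.00133). KDM2A and KDM2B, the H3K36 demethylases that bind CpG islands, were not called, at −0.24 (adjusted p = 0.132) and 0.24 (adjusted p = 0.0711). KDM2A was called without bear 1316 (adjusted p = 0.0383), and KDM2B in DESeq2 without the bear as a term (0.0394). KDM7A, which acts on dimethylated H3K9 and H3K27, stood at −0.11 (adjusted p = 0.514).

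The bears differed in how far the set moved. The median difference over the 41 genes was 0.62 on the log2 scale in bear 1316 and 0.37 in bear 1305, but −0.02 in bear 1317 and 0.04 in bear 1511, with 0.19 and 0.17 in bears 1509 and 1512. The same median over all genes stayed between −0.03 and 0.01 in every bear, which is largely set by the TMM scaling. In bear 1316, 34 of the 41 genes were higher in winter, and in bear 1317 19 of 41. The 18 called rises had a median of 0.36 to 0.95 in single bears and the 6 called falls one of −1.06 to −0.49. The falls were thus weakest in bear 1316 (−0.49), where the rises were strongest (0.95). The summer library of bear 1316 also had the highest summed level of adipocyte markers, 1990 CPM beside a summer median of 734. Whether this bears on its differences was not tested.

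**Figure D3:**
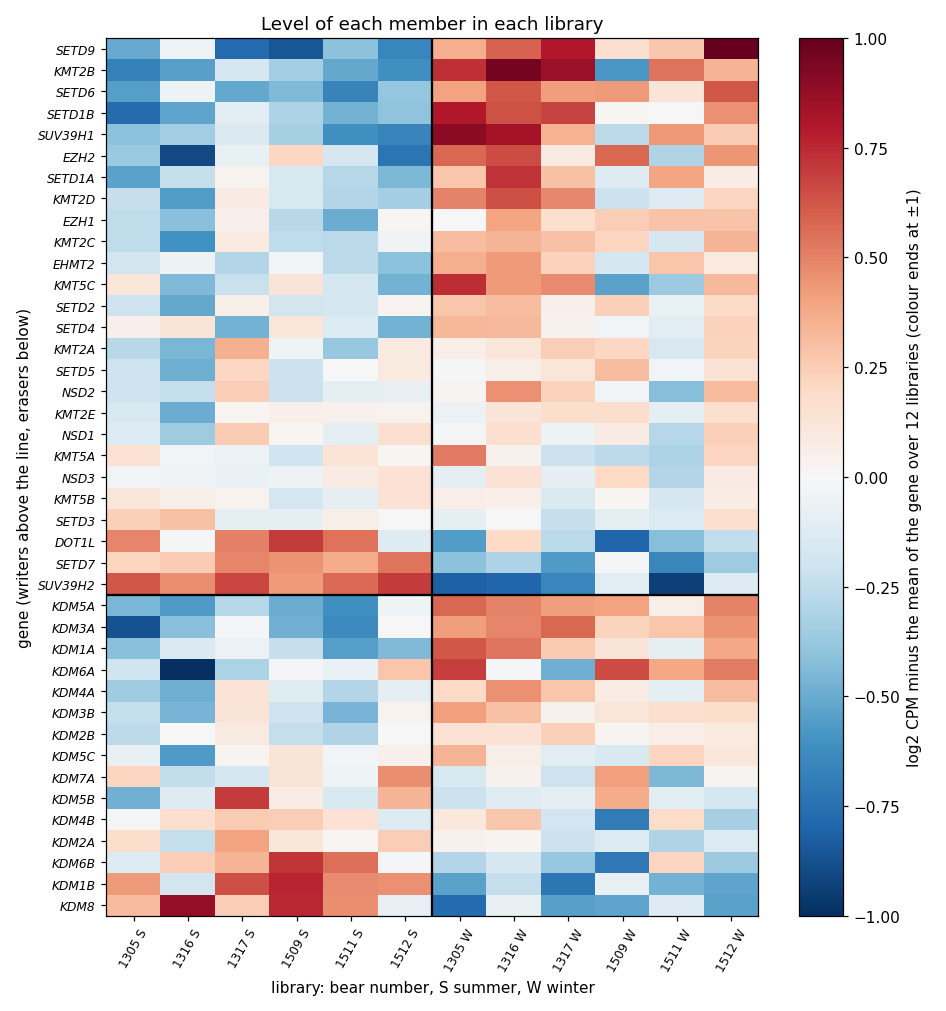
Level of the 41 members (rows, writers above the line and erasers below) in the 12 libraries (columns, summer left, winter right), as log2 CPM minus the mean of the gene, with the colours ending at ±1. In winter the columns are mostly red for the top rows of each class and blue for the bottom rows, with the winter library of bear 1316 among the reddest.

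As ratios within a library do not depend on the scaling between libraries, 6 pairs of paralogues were also compared as log2 ratios of reads. The KDM6A to KDM6B ratio went from 0.56 ± 0.67 in summer to 1.72 ± 0.58 in winter (SD, n = 6 bears), a difference of 1.15 ± 0.66. The KDM5A to KDM5B ratio differed by 0.94 ± 0.34, from 0.86 ± 0.33 to 1.80 ± 0.30 (SD, n = 6 bears). Both were higher in winter in 6 of 6 bears, with p = 0.0312 in a two-sided exact permutation test over the bears, the smallest it can give, and p = 0.0938 after adjustment over the 6 pairs, above 0.05. EZH1 to EZH2 differed by −0.23 ± 0.71, higher in 2 of 6 bears (exact p = 0.562, adjusted p = 0.562), and KMT5B to KMT5C by −0.40 ± 0.75, also higher in 2 (exact p = 0.281, adjusted p = 0.338). NSD1 to NSD2 differed by −0.15 ± 0.16 and SETD1A to SETD1B by −0.32 ± 0.33, each lower in 5 of 6 bears (exact p = 0.0938, adjusted p = 0.141 for both).

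**Figure D4:**
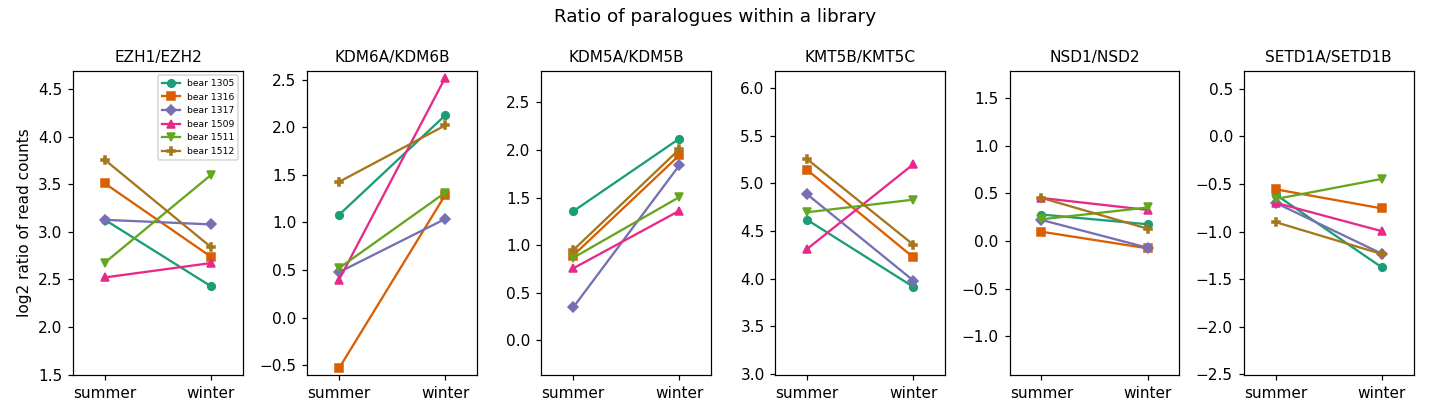
Log2 ratio of read counts of 6 pairs of paralogues (y axis, the same span in each panel) in summer and winter, with a line for each of the 6 bears. All lines rise for KDM6A/KDM6B and KDM5A/KDM5B, and cross for EZH1/EZH2 and KMT5B/KMT5C.

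Summed over its genes, the writer class hardly moved, and SETD7 set this sum. The 26 writers added up to 1093 to 1334 CPM in summer (median 1202) and 985 to 1299 CPM in winter (median 1186), higher in winter in 2 of 6 bears. SETD7 held 36.6 to 40.7% of the writer reads in summer and 21.1 to 30.2% in winter, which is a share of reads and not of transcripts, as gene length was not taken into account. The sum of the other writers, formed after these values were seen, was 663 to 828 CPM in summer (median 724) and 756 to 1007 CPM in winter (median 918), higher in 6 of 6 bears. This rested on TMM scaling. As a percent of all reads, the same sum was lower in winter in bear 1317 (0.0944 to 0.0843%) and bear 1511 (0.0743 to 0.0731%). It was higher in the other bears. For the 15 erasers the sum was 406 to 544 CPM in summer (median 471) and 510 to 609 CPM in winter (median 553), higher in 5 of 6 bears.

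**Figure D5:**
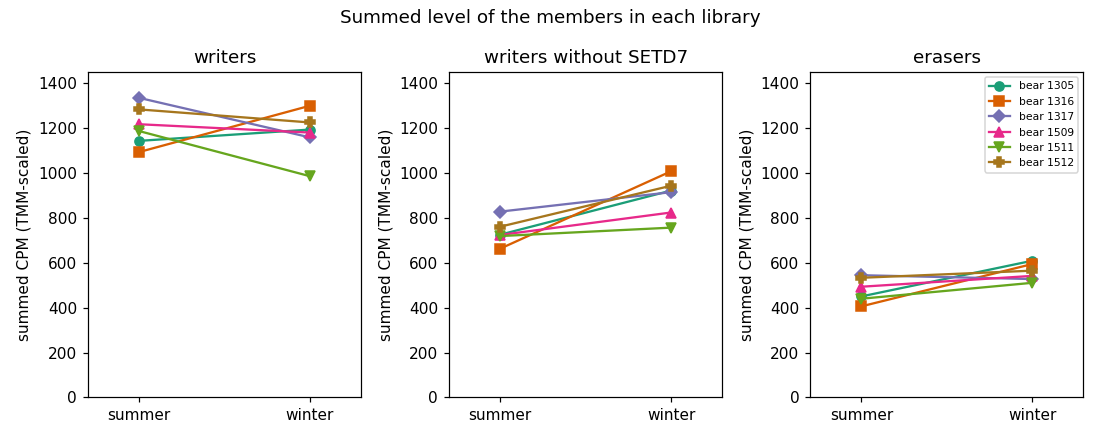
Summed level in TMM-scaled CPM (y axis from 0) of the 26 writers, of the writers without SETD7 and of the 15 erasers, in summer and winter, with a line for each of the 6 bears. The writers lie between 985 and 1334 CPM in both seasons, and without SETD7 all 6 lines rise at this scaling.

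Partners of these enzymes were counted in the same fit, with no test of a list. Over all 115 tested genes of the partner, reader, cofactor and related lists, 24 were higher and 24 lower. That is 41.7% called, close to the 40.8% of all genes tested. Of the 9 tested PRC2 subunits other than EZH1 and EZH2, 4 were higher and 2 lower (66.7% called). PHF1, an accessory subunit, rose by 0.68 (SE 0.11, adjusted p = 0.000965) on the log2 scale, while JARID2, which recruits PRC2 to its targets, fell by 0.77 (SE 0.10, adjusted p = 0.000252), both in 6 of 6 bears. The 15 subunits of COMPASS, the complexes of the KMT2 and SETD1 enzymes, gave 2 rises and 1 fall (20% called). BOD1 was at 0.46 (SE 0.14, adjusted p = 0.0194), higher in 6 of 6 bears. WDR82 was at −0.39 (SE 0.11, adjusted p = 0.0167), lower in 6 of 6. Among the 10 partners of KDM1A, 3 were higher and 0 lower (30% called), with GSE1 at 0.98 (SE 0.12, adjusted p = 0.000169). Among the 6 partners of DOT1L, MLLT6 alone was called (16.7%), at 1.28 (SE 0.16, adjusted p = 0.000173).

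Methyltransferases and Jumonji proteins named by other schemes were counted too, whether or not histones are their main target. Of 13 such methyltransferases, 2 were higher and 0 lower (15.4% called), SMYD2 at 0.77 (SE 0.18, adjusted p = 0.00614) and ASH1L at 0.59. Of 7 such Jumonji proteins, 1 was higher and 2 were lower (42.9% called). Both shares stand beside 40.8% called over all genes tested. PHF2 was higher in 5 of 6 bears, at 0.43 (SE 0.12, adjusted p = 0.0163). HR, a corepressor with H3K9 demethylase activity, fell by 3.66 (SE 0.21, adjusted p = 5.47e-06) on the log2 scale, with 11 to 285 reads per library, and JMJD6 fell by 0.94, both in 6 of 6 bears without overlap.

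Most of the tested genes around α-ketoglutarate, the cofactor of the Jumonji erasers, were lower. Of 14 tested genes that form or use α-ketoglutarate or act on related metabolites such as succinate, 12 were lower (85.7%) and 0 higher. IDH3G and SDHA were not called, at −0.06 and −0.29. Within the DEG limits 8 of the 14 were lower, and the median log2 fold change was −0.69. Over all genes tested, 21.2% were lower, and 13.4% within the DEG limits. OGDH, the E1 subunit of the α-ketoglutarate dehydrogenase complex, was at −1.01 (SE 0.16, adjusted p = 0.00066), lower in 6 of 6 bears, and the succinate dehydrogenase subunits SDHB and SDHC were at −0.79 and −0.80. These are also genes of mitochondrial energy metabolism.

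Markers of the other cells of the biopsy were lower in winter as well. Of the tested markers, 6 of 8 endothelial, 6 of 7 fibroblast, 6 of 8 macrophage, 4 of 5 satellite cell and 4 of 6 smooth muscle and pericyte genes were lower, and 1 endothelial gene was higher. Over all genes tested, 21.2% were lower. The 8 tested skeletal muscle markers went both ways, with 2 higher and 3 lower (25% and 37.5%). TTN and NEB were at 0.65 and 0.51, and ACTA1, MB and ACTN2 at −0.91, −1.02 and −0.54 on the log2 scale. The summed fibroblast level ranged from 4201 to 11308 CPM in summer and from 274 to 1634 CPM in winter, with TCF21 at 0 reads in 9 libraries. Its genes differed in size of change. COL1A1, COL1A2 and COL3A1 were at −5.17, −4.13 and −5.08, LUM and FAP at −2.13 and −2.14, and DCN at −0.91 on the log2 scale. PDGFRA was not called (−0.46, adjusted p = 0.0778). The satellite cell level ranged from 15.0 to 27.5 CPM in summer and from 5.21 to 7.22 CPM in winter, with CALCR at 0 reads in 3 libraries. Adipocyte and lymphocyte markers had 2 of 6 and 2 of 5 lower, and of the 3 erythroid markers 0 were called. The part of these cells in the changes of the writers and erasers was not tested.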

How the data were processed

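Messenger RNA of 12 muscle libraries was sequenced as stranded single reads of 50 bases. Per the paper's methods and the submitters' processing notes, the authors aligned the reads to ASM358476v1 with TopHat2 2.1.1, discarded alignments with more than 3 mismatches and counted reads per gene on the opposite strand with featureCounts 1.6.2. The deposited values are these raw counts, not normalized. A count is a read, not a molecule.

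Genes with at least 30 reads over the 12 libraries were kept, and the others held 0.019% of all reads. Counts were scaled by TMM and fitted with edgeR 4.0.16 (R 4.3.3), glmQLFit and glmQLFTest, with season and bear as terms. A standard error is the size of the log2 fold change divided by the square root of F. Levels are log2 CPM with a prior count of 2. Summed levels were divided by the TMM-scaled library size without a prior count. The alternatives were no bear term, DESeq2 1.42.0 with and without it, limma 3.58.1 voom, RLE scaling, library totals, no filter, filterByExpr, stricter thresholds and leaving out each bear.

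Pairing comes from the methods, by which each animal gave a biopsy in both seasons. After subtracting season means, the libraries of a bear correlated at 0.0903 to 0.344, and those of different bears at most at 0.142. No library was a copy of another (chi-square per gene at least 39.1 within a season). The fit was tested on simulated data.

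All members are named. Full statistics were given for at least the 20 members with the lowest p, as fewer than 20 called members reached a log2 fold change of 0.5, and, in each list of partners, for the called gene with the largest rise or fall. The members, lists and tests were chosen with earlier results of these data known. The sequencing lane of a library is not given in the labels, so a lane effect was not tested.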

Additional observations from a re-analysis of the deposited data

Results flagged for a closer look

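Of 94 sets of 6 libraries examined, for 41 genes and 6 ratios in 2 seasons, 7 held a library whose gap to its nearest neighbour, divided by the range, was above the 95% limit of Dixon's test, where chance gives about 5 in 100. In the summer library of bear 1316, KDM1B was at 2.81 log2 CPM (others 3.41 to 3.75), KDM6A at 2.82 (others 3.91 to 4.50) and KDM5C at 5.33 (others 5.82 to 6.03). In the winter library of bear 1511, KDM5A was at 5.42 log2 CPM (others 5.76 to 5.93) and KMT2C at 5.76 (others 6.14 to 6.26). KDM5B was at 4.40 log2 CPM in the winter library of bear 1509 (others 3.82 to 3.95) and NSD2 at 5.52 in the summer library of bear 1317 (others 5.03 to 5.19). The cause of these gaps was not tested.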

How the results depend on the processing

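At an adjusted p below 0.01 the counts were 2116 higher and 2327 lower over all genes, 5 writers and 3 erasers higher, and 15 genes of the partner lists lower. With the DEG limits they were 2115, 2325, 5, 3 and 15. At 0.05 they were 3392, 3663, 12, 6 and 24. With library totals 6 writers and 3 erasers were higher, and over all genes 39.8% of calls were rises. Leaving out a bear gave 8 to 12 writers and 3 to 6 erasers higher. Without the replicate block 17 members were higher and 6 lower, and KDM6A was the call lost. In edgeR the block changed no other call of a member. In DESeq2 KDM2B was also called without the block (adjusted p = 0.0394) and not with it (0.0863). Without SETD7 the mean difference of the summed writers was 0.28 on the log2 scale, against −0.05 with it. The sign of 4 members not called changed. NSD3 ran from −0.058 to 0.058, NSD1 from −0.042 to 0.12, KMT5A from −0.088 to 0.093 and KDM5B from −0.20 to 0.021 over the bears left out. With library totals NSD1 was at −0.030 and KMT5A at −0.078, and without the filter KMT5A was at −0.013. The cause was not tested. With 6 bears, an exact test of a pair cannot go below 0.0312. Reads were not assigned to transcripts, so a change of isoform was not measured, and mRNA levels do not measure histone methylation.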

Other observations

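Readers of methylated histones were called in both directions, with 5 of 22 tested genes higher and 2 lower. That is 31.8% called, beside 40.8% of all genes. CBX7, a chromodomain subunit of Polycomb complex PRC1, was higher in 6 of 6 bears at a log2 fold change of 0.88 (SE, the standard error, 0.21, adjusted p = 0.00644). L3MBTL1, with 4 to 23 reads in a library, was lower in 6 of 6 at −1.13 (SE 0.36, adjusted p = 0.0282).

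Of the 10 arginine methyltransferase genes, 3 were higher and 3 lower, 60% called beside 40.8% of all genes. PRMT6 was lower in 6 of 6 bears at −0.69 (SE 0.23, adjusted p = 0.0362). PRMT8 was called higher, but had reads in 2 of 6 winter libraries, at most 69, and in 0 of 6 summer libraries, so no fold change is given. Of the 9 tested genes of the S-adenosylmethionine list, 3 were higher and 2 lower (55.6% called). AHCYL2 rose by 1.29 (SE 0.12, adjusted p = 4.24e-05) and its paralogue AHCYL1 fell by 0.72, both proteins related to S-adenosylhomocysteine hydrolase and best known as regulators of ion channels and transporters. NNMT, which methylates nicotinamide, was lower in 5 of 6 bears at −1.596 (SE 0.44, adjusted p = 0.0147).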
